A study of Saccharomyces cerevisiae with 16 samples.

Results

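Deletion of *MSS11* and deletion of *FLO8* were compared in Σ1278b, a laboratory strain of *Saccharomyces cerevisiae* known for filamentous and invasive growth, by asking of each gene whether its transcript responded to 1 deletion and not to the other. The measure was a difference of differences on the log2 scale, that is, the change from wild type a to *mss11* minus the change from wild type b to the arrays labelled *flo8*. Transcripts were measured on Affymetrix Yeast Genome 2.0 arrays, and probe sets annotated to *S. cerevisiae* genes were kept where they lay above log2 5 in 2 or more of the 8 arrays, which left 5120 of 5498 probe sets and 5085 of 5449 genes. The kept probe set nearest to that limit was that of *YER187W*, with a log2 intensity of 5.01 in its second-highest array, and the nearest one left out was that of *PEX18*, at 4.99.

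Each of the 4 conditions had 2 arrays, which the labels call biological replicates, that is, separate cultures. All were the Σ1278b strain of H-U Moesch, labelled *MATα* with *ura3-52* and with *hisG* deletions of *TRP1*, *LEU2* and *HIS3*, whereas the paper lists the parent of its deletion strains as *MATa*. The paper gives both deletions as replacements of the gene by *LEU2*. By their source names all 4 conditions carried an empty vector, YEpLac195 in the plasmid label of wild type a, *mss11* and wild type b. The plasmid label of the arrays titled *flo8* deleted is instead YEpLac195-FLO8, and that of the arrays titled *FLO8* overexpressed is YEpLac195, so that the plasmid labels of these arrays go against their titles. The paper does not report on either. Cultures of 5 ml grew in synthetic medium with 2% glucose at 30 °C, to early stationary phase by the labels and to mid-exponential phase by the paper. Wild type a and *mss11* had lowest intensities of 3.36 to 3.37 and array medians of 10.17 to 10.28 on the log2 scale, and wild type b and the arrays labelled *flo8* had lowest intensities of 3.11 to 3.12 and medians of 11.53 to 11.56. Over the 5120 probe sets, wild type b lay above wild type a by a median of 1.25, with a 5th to 95th percentile range of 0.18 to 1.97. Each deletion was measured in 1 of these sets only, so a difference between the deletions and a difference between the sets cannot be told apart. The root mean square SD between replicates was 0.291 in wild type a, 0.0991 in *mss11*, 0.0916 in wild type b and 0.170 in the arrays labelled *flo8*.

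Mss11 and Flo8 are transcription factors that act downstream of cAMP and protein kinase A, and both are needed for the expression of *FLO11*, which encodes the cell wall adhesin of invasive growth and filament formation in Σ1278b. The catalytic subunit Tpk2 phosphorylates Flo8 and relieves repression by Sfl1, and the filamentous growth MAPK pathway reaches the same promoter through Ste12 and Tec1. Leucine, isoleucine and valine are made by a pathway that lies largely in mitochondria. Several of its genes are activated by Leu3, and its enzyme Leu1 carries an iron-sulfur cluster. Isu1 and Isu2 are mitochondrial scaffold proteins of iron-sulfur cluster assembly.

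The signal of the deleted gene fell to a low level in *mss11* but not in the arrays labelled *flo8*. *MSS11* stood at log2 intensities of 7.50 and 8.34 in wild type a, 3.01 and 3.03 in *mss11*, 9.74 and 9.70 in wild type b, and 9.08 and 9.41 in the arrays labelled *flo8*. *FLO8* stood at 10.24 and 10.29 in wild type a, 10.43 and 10.45 in *mss11*, 11.59 and 11.63 in wild type b, and 11.06 and 11.16 in the arrays labelled *flo8*. The *FLO8* change in the latter was -0.50 (standard error 0.73, adjusted p = 0.844 from limma), and in a fit on the 8 arrays alone the adjusted p was 0.0227. The *FLO8* probe set therefore goes against the label *flo8* deleted unless its probes lie outside the deleted part, and the sources used here do not give the position of either. The standard error of *FLO8* takes in the arrays titled *FLO8* overexpressed, which stood 2.81 apart at 15.71 and 12.90. Every direction given below for *flo8* rests on these 2 arrays and is written as that of the arrays labelled *flo8*. The α-specific genes *MF(ALPHA)1*, which encodes the α-factor pheromone, and *STE3*, the receptor for **a**-factor, lay at 14.99 to 15.61 and 11.07 to 13.03 in the 8 arrays. The **a**-factor genes *MFA1* and *MFA2* lay at 2.70 to 2.76 and 1.84 to 1.94, as in cells of the labelled *MATα* type. Of the other **a**-specific genes, *BAR1*, *AGA2* and *ASG7* lay at 2.22 to 3.37, 2.03 to 2.25 and 1.90 to 2.07. *STE2* and *STE6* lay higher, at 4.79 to 5.38 and 5.88 to 7.64.

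Few probe sets were shown to respond to 1 deletion and not to the other, and other settings changed this balance. There were 8 for the arrays labelled *flo8* and 1 for *mss11*, that of the deleted gene *MSS11* itself. No other gene was thus shown to respond to *mss11* only. A probe set was called where the limma adjusted p, over the 5498 probe sets, was under 0.05. In *mss11* 30 of 5120 were called (0.586%), 10 higher (0.195%) and 20 lower (0.391%). In the arrays labelled *flo8* 94 were called (1.84%), 38 higher (0.742%) and 56 lower (1.09%). For the difference between the changes 10 were called (0.195%), 9 of them with the higher value for *mss11* (0.176%) and 1 with the lower (0.0195%). Without adjustment, 764, 763 and 543 probe sets had p under 0.05. The difference, together with a call for 1 deletion only, held for *MSS11* itself on the *mss11* side and for 8 genes on the *flo8* side, all lower in the arrays labelled *flo8*. *LEU2* was called in opposite directions, and 14 genes were called for both deletions in the same direction. The median 95% interval of the difference reached 0.324 to either side, and in 85.0% of the probe sets that interval lay within 1 of 0. These counts depended on single arrays. Without wild type a replicate 1, the calls were 1629 for *mss11*, 274 for the arrays labelled *flo8* and 1358 for the difference, and 997 probe sets passed as responding to *mss11* only against 107 to *flo8* only. Without wild type a replicate 2 they were 38, 274 and 8, and 1 probe set passed as responding to *mss11* only. Without *mss11* replicates 1 and 2, *mss11* calls were 13 and 12, *flo8* calls 59 in both cases, and difference calls 7 and 4. Without *flo8* replicate 1 there were 206 calls for the arrays labelled *flo8* and 88 for the difference, and without replicate 2 there were 35 and 12. Without wild type b replicate 1 there were 33 and 5, and without its replicate 2 there were 25 and 4, with 16 *mss11* calls in both cases. A fit on the 8 arrays alone made 19, 60 and 9 calls, among them 15 of the 30, 52 of the 94 and 6 of the 10. A fit on all 16 arrays of the series, which adds 4 arrays of another strain, made 7, 20 and 3, with 2 probe sets responding to *mss11* only and 1 to *flo8* only. With values below log2 5, the limit used to keep probe sets, raised to 5, these were 7 and 14, and the difference in *MSS11* was -2.44 and not called (adjusted p = 0.0625).

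**Figure D1:**
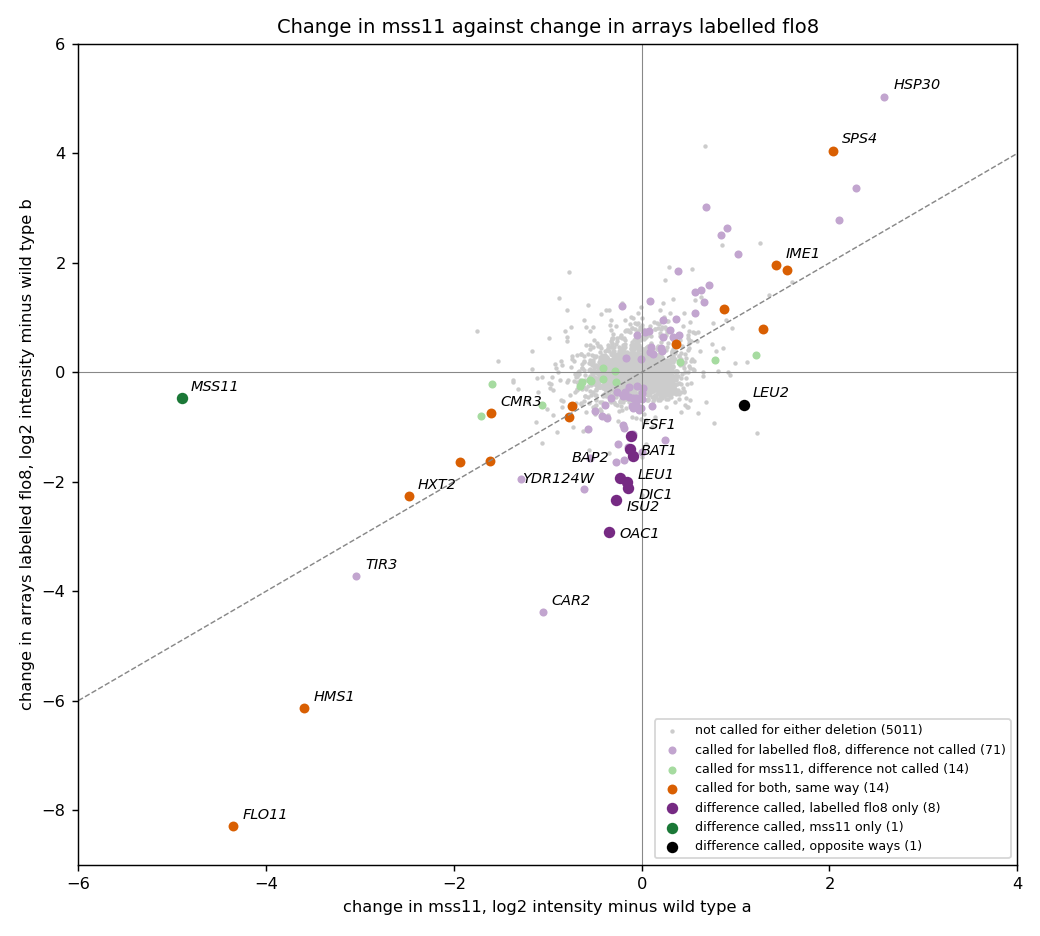
Change in log2 intensity in *mss11* against wild type a (horizontal axis) and in the arrays labelled *flo8* against wild type b (vertical axis), with 1 point for each of 5120 probe sets, coloured by which tests called it. The 8 genes called for the arrays labelled *flo8* only lie below 0 on the vertical axis and close to 0 on the horizontal one, and the dashed line marks equal changes.

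The 8 genes that responded in the arrays labelled *flo8* and not in *mss11* comprised leucine and branched-chain amino acid genes, carriers of the inner mitochondrial membrane and an iron-sulfur scaffold gene. *OAC1*, a mitochondrial carrier of oxaloacetate and isopropylmalate, stood at log2 intensities of 13.36 and 13.11 in wild type a, 12.86 and 12.91 in *mss11*, 14.45 and 14.51 in wild type b, and 11.55 and 11.57 in the arrays labelled *flo8*. Both arrays labelled *flo8* lay far below wild type b, and the *mss11* arrays lay just below wild type a. The change was -2.92 in the arrays labelled *flo8* (standard error 0.17, adjusted p = 0.000184) and -0.35 in *mss11* (adjusted p = 0.396), and the difference was 2.57 (standard error 0.23, adjusted p = 0.00612 from limma). *LEU1*, which encodes isopropylmalate isomerase, stood at 13.92 and 13.98, 13.79 and 13.80, 15.09 and 15.10, and 13.15 and 13.03 in the same order of conditions. Its changes were -0.16 in *mss11* and -2.01 in the arrays labelled *flo8*, with a difference of 1.86 (standard error 0.09, adjusted p = 0.000165). *BAT1*, the mitochondrial branched-chain aminotransferase, stood at 14.36 and 14.41, 14.26 and 14.26, 15.17 and 15.14, and 13.78 and 13.73, and differed by 1.28 (standard error 0.06, adjusted p = 0.000165). *BAP2*, a leucine permease of the plasma membrane, stood at 12.76 and 12.40, 12.45 and 12.53, 13.62 and 13.71, and 12.19 and 12.08. Its *mss11* arrays lay between the replicates of wild type a, and its difference was 1.44 (standard error 0.16, adjusted p = 0.0183).

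*ISU2*, a scaffold on which iron-sulfur clusters are built, stood at log2 intensities of 11.99 and 11.81 in wild type a, 11.69 and 11.55 in *mss11*, 13.66 and 13.60 in wild type b, and 11.32 and 11.28 in the arrays labelled *flo8*. The changes were -0.28 in *mss11* (adjusted p = 0.247) and -2.33 in the arrays labelled *flo8* (adjusted p = 2.45e-05), a difference of 2.06 (standard error 0.13, adjusted p = 0.0008). Its paralog *ISU1* changed by -0.01 and 0.10, with no call in either comparison (adjusted p = 0.964 and 0.429). *DIC1*, the mitochondrial dicarboxylate carrier, stood at 12.06 and 11.75, 11.70 and 11.81, 13.83 and 13.75, and 11.82 and 11.52, and differed by 1.97 (standard error 0.18, adjusted p = 0.00612). *FSF1*, a mitochondrial membrane protein of the sideroflexin family, stood at 13.24 and 13.15, 13.02 and 13.14, 14.46 and 14.48, and 13.42 and 13.19. It had the smallest difference of the 8 genes, 1.05 (standard error 0.12, adjusted p = 0.0203). *YDR124W*, an uncharacterised gene, stood at 6.96 and 6.98, 6.61 and 6.86, 7.93 and 8.05, and 6.30 and 5.83, and differed by 1.69 (standard error 0.21, adjusted p = 0.0344). In each of the 8 genes, both arrays labelled *flo8* lay below both wild type b arrays, as 65% of all 5120 probe sets did in 1 direction or the other. Both *mss11* arrays also lay below both wild type a arrays, by less, in *OAC1*, *LEU1*, *BAT1*, *ISU2*, *FSF1* and *YDR124W*, but not in *BAP2* and *DIC1*. Over all 5120 probe sets, *mss11* lay clear of wild type a in 36.6%, in 1 direction or the other.

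The size of the response in *mss11* was bounded for these 8 genes, as far as the pooled spread holds for wild type a. The 95% intervals use 1 spread per gene over the 6 conditions of the fit. Over all probe sets kept, the root mean square SD between replicates was 0.291 in wild type a and 0.0916 in wild type b. Every *mss11* change lay between -0.35 for *OAC1* and -0.09 for *BAP2*, and the 95% intervals of all 8 lay within 1 of 0, the widest reaching from -0.73 to 0.04 in *OAC1*. The changes in the arrays labelled *flo8* lay between -2.92 and -1.16. In the arrays with *MSS11* overexpressed, which share wild type a with *mss11*, the mean lay between 0.75 below wild type a in *BAP2* (a change of -0.75) and 0.33 above it in *LEU1*. The arrays titled *FLO8* overexpressed, which share wild type b, changed by between -0.37 in *YDR124W* and 0.02 in *BAT1*. Wild type b lay above wild type a in all 8 genes, by between 0.77 in *BAT1* and 1.89 in *DIC1*, beside the median of 1.25 over all 5120 probe sets. The difference in *BAT1*, *LEU1* and *ISU2* was called without each of the 8 arrays in turn, with highest adjusted p of 0.00329, 0.00329 and 0.0107. Others lost the call without 1 array. Without wild type b replicate 2, adjusted p was 0.0505 for *OAC1* and *DIC1*, 0.129 for *BAP2*, 0.142 for *FSF1* and 0.20 for *YDR124W*. Without wild type b replicate 1, it was 0.0515 for *OAC1*, 0.055 for *DIC1*, 0.104 for *BAP2*, 0.139 for *FSF1* and 0.157 for *YDR124W*. Without *mss11* replicate 2, it was 0.0591 for *OAC1* and *DIC1*, 0.128 for *BAP2* and *FSF1* and 0.16 for *YDR124W*, and without *mss11* replicate 1, it was 0.0757 for *BAP2* and *YDR124W* and 0.0723 for *FSF1*. *BAP2* was not called without *flo8* replicate 2 (adjusted p = 0.0782), nor *FSF1* and *YDR124W* without wild type a replicate 2 (adjusted p = 0.074 and 0.0906). In a fit on the 8 arrays alone, adjusted p was 0.104 for *BAP2* and *FSF1*, 0.0607 for *DIC1* and 0.168 for *YDR124W*. In a fit on all 16 arrays, *FSF1* was the only one of the 8 genes with a called difference.

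**Figure D2:**
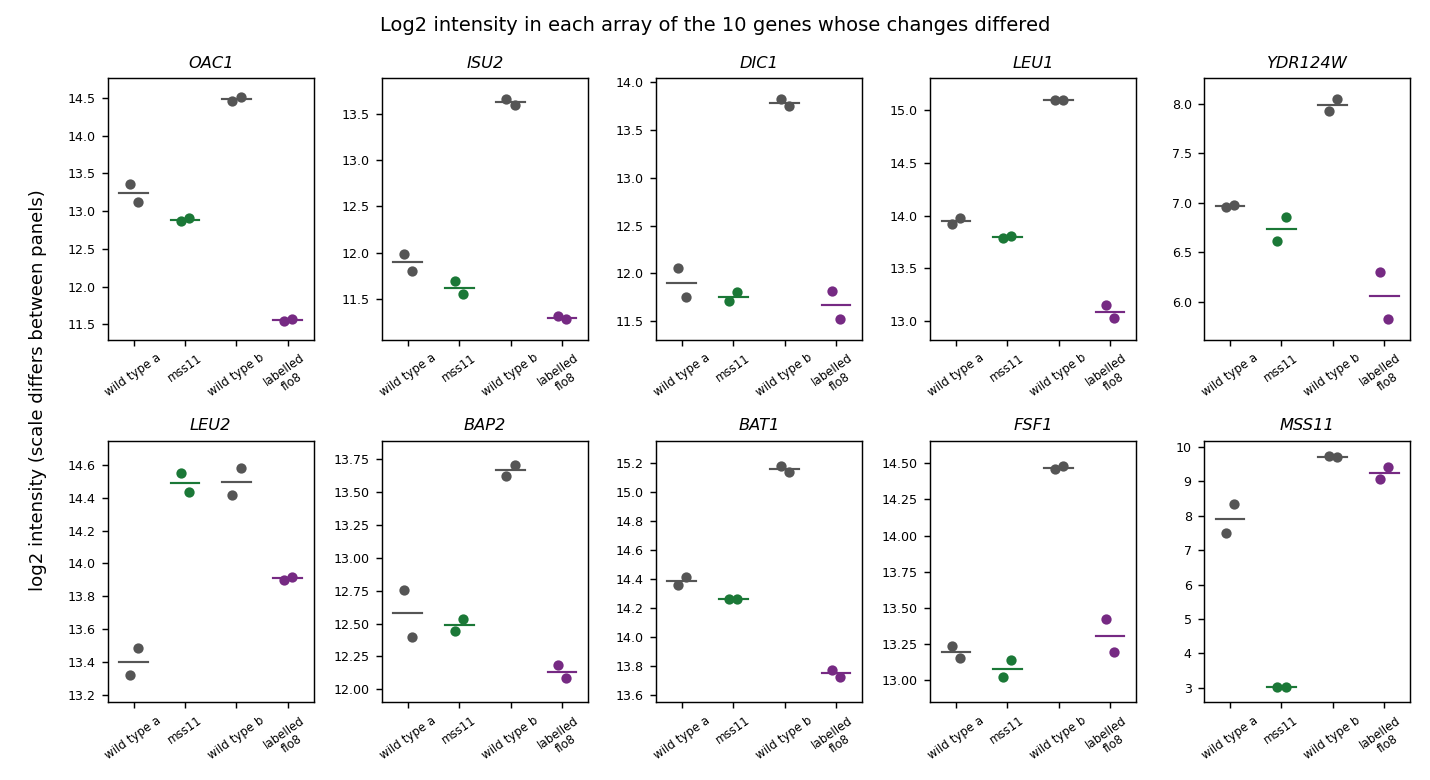
Log2 intensity in each of the 8 arrays for the 10 genes whose change differed between the deletions, with 1 panel per gene and points for the 2 arrays of each condition and a line at their mean. In 8 panels the arrays labelled *flo8* lie far below wild type b while *mss11* lies near wild type a, *LEU2* moves in opposite directions, and *MSS11* falls in *mss11*, from a mean of 7.92 to 3.02.

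*LEU2*, isopropylmalate dehydrogenase of leucine synthesis and the marker that replaced the deleted gene in both strains by the paper's list, was the 1 gene called in opposite directions. It stood at 13.32 and 13.48 in wild type a, 14.55 and 14.43 in *mss11*, 14.42 and 14.58 in wild type b, and 13.90 and 13.92 in the arrays labelled *flo8*. It was higher in *mss11* by 1.09 (standard error 0.11, adjusted p = 0.0071) and fell by 0.59 in the arrays labelled *flo8* (standard error 0.11, adjusted p = 0.0492 from limma), a difference of 1.68 (standard error 0.16, adjusted p = 0.00612). Its signal was thus high in both wild types, which are labelled as deleted for *LEU2*. The fall in the arrays labelled *flo8* lay close to the threshold and was not called in a fit on the 8 arrays alone (adjusted p = 0.0626) or with values below log2 5 raised to 5 (0.0657), nor without *mss11* replicate 1 or 2 (0.0922 in both cases), wild type b replicate 1 (0.133) or 2 (0.309), or *flo8* replicate 1 (0.0998) or 2 (0.267). The rise in *mss11* was not called without *mss11* replicate 1 (0.0801), and the difference was not called without *mss11* replicate 1 (0.0505) or 2 (0.0537) or wild type b replicate 2 (0.0505). The part of the *LEU2* marker in the other leucine genes was not tested.

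Beside *LEU2* and the genes above, 3 more branched-chain amino acid genes were lower in the arrays labelled *flo8*. Of 15 genes for the synthesis and uptake of branched-chain amino acids, a list chosen after the values were seen, 8 were lower and 1 was higher in the arrays labelled *flo8*, 1 (*LEU2*) was higher in *mss11*, and 5 were called for the difference. Over all 5120 probe sets 1.09% were lower and 0.742% higher in the arrays labelled *flo8*, 0.195% were higher in *mss11*, and 0.195% were called for the difference. The median change was -0.59 in the arrays labelled *flo8* and -0.07 in *mss11*, against -0.01 and -0.05 over all 5120 probe sets. Beside *OAC1*, *LEU1*, *BAT1*, *BAP2* and *LEU2*, the genes lower in the arrays labelled *flo8* were *LEU4*, which encodes isopropylmalate synthase (-0.61, adjusted p = 0.00246), *ILV3*, dihydroxyacid dehydratase (-0.66, adjusted p = 0.0184), and *ILV2*, acetolactate synthase (-0.49, adjusted p = 0.0371). Their changes in *mss11* were -0.10, -0.01 and 0.00, and the difference was not called for them (adjusted p = 0.0972, 0.16 and 0.288). *BAT2*, the cytosolic aminotransferase, moved the other way from *BAT1*. It stood at 12.53 and 12.52 in wild type b and 13.33 and 13.25 in the arrays labelled *flo8*, a rise of 0.77 (adjusted p = 0.0155). The regulator *LEU3* was not called, with changes of -0.20 in *mss11* and -0.13 in the arrays labelled *flo8* (adjusted p = 0.335 and 0.515). *ILV1*, *ILV5*, *ILV6*, *LEU9* and *BAP3* were not called in either comparison. The calls of *ILV2*, *ILV3* and *BAT2* were lost without wild type b replicate 1 (adjusted p = 0.215, 0.122 and 0.115), wild type b replicate 2 (0.244, 0.133 and 0.128) or *flo8* replicate 2 (0.228, 0.146 and 0.102), and that of *ILV2* also without *flo8* replicate 1 (0.0772) or either *mss11* replicate (0.0801).

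**Figure D3:**
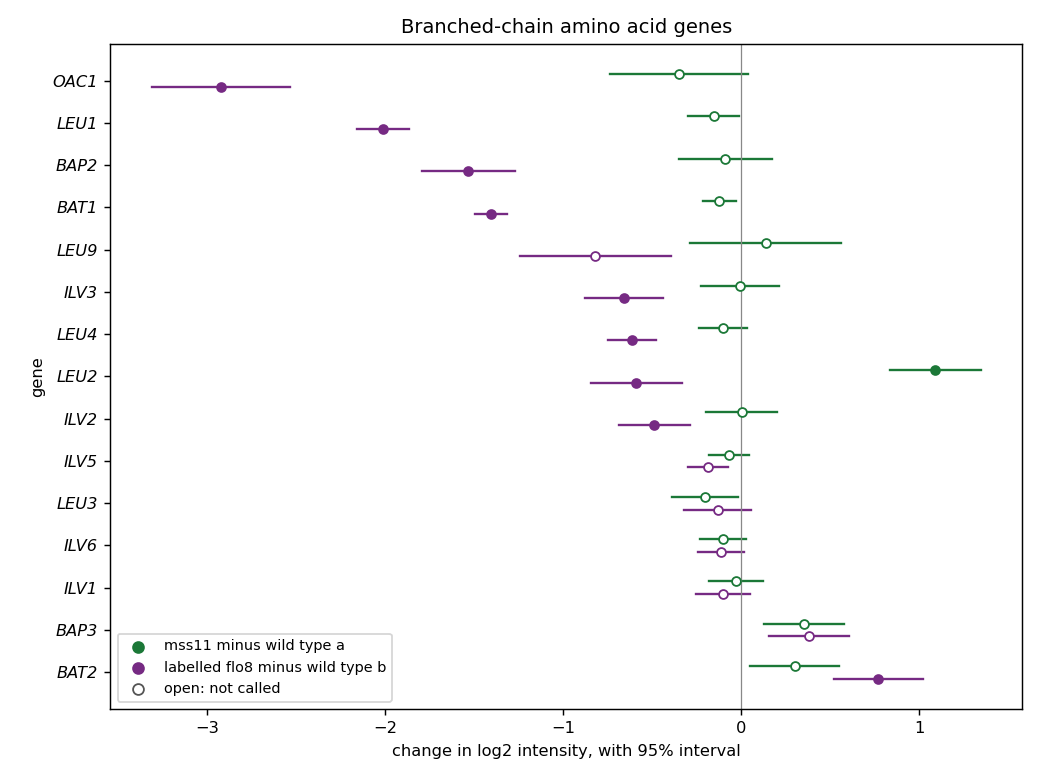
Change in log2 intensity with its 95% interval for the 15 branched-chain amino acid genes, in *mss11* against wild type a and in the arrays labelled *flo8* against wild type b, with open points where the change was not called. From *OAC1* at -2.92 the *flo8* changes run up to *BAT2* at 0.77, while *LEU2* at 1.09 is the only filled *mss11* point.

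Of 21 genes of iron-sulfur cluster assembly, also listed after the values were seen, 4 were lower in the arrays labelled *flo8* and none were called in *mss11*, against 1.09% lower and 0.586% called over all 5120 probe sets, with medians of -0.17 and -0.07. Beside *ISU2*, these were *DRE2*, which acts in cytosolic cluster assembly (-0.70, adjusted p = 0.00246), *YAH1*, the mitochondrial ferredoxin (-0.47, adjusted p = 0.0133), and *JAC1*, a co-chaperone of cluster transfer (-0.35, adjusted p = 0.0428). *DRE2* changed by -0.03 in *mss11*, and the difference was not called at 0.67 (adjusted p = 0.0623). *YAH1* and *JAC1* changed by -0.33 and -0.18 in *mss11*, and their differences of 0.15 and 0.17 had 95% intervals of -0.06 to 0.35 and -0.04 to 0.38. The call of *YAH1* was lost without wild type b replicate 2 (adjusted p = 0.106) or *flo8* replicate 2 (0.126). Neither was called in a fit on the 8 arrays alone (adjusted p = 0.0627 for *YAH1* and 0.121 for *JAC1*). The call of *JAC1* was also lost without either *mss11* replicate (0.0761), wild type b replicate 1 (0.293) or 2 (0.176), or *flo8* replicate 2 (0.307).

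Most of what *mss11* changed beyond *MSS11* moved in the same direction in the arrays labelled *flo8*. Both tests called 15 genes, which is 50% of the 30 *mss11* calls and 16% of the 94 *flo8* calls, and 14 of these moved the same way, 8 lower and 6 higher. The direction was the same in 27 of the 30 genes called in *mss11*, with *MSS11* itself counted in both numbers. It was the same in 83 of the 94 called in the arrays labelled *flo8*, against 53.4% of all 5120 probe sets. The comparisons share no arrays, but both tests use 1 spread per gene, pooled over the 12 Σ1278b arrays. Whether a gene is called in 1 comparison is therefore not independent of its call in the other. Across the 5120 probe sets, which are not independent replicates, the changes had a Pearson correlation of 0.40 and a Spearman correlation of 0.081. None of the 14 genes was called for the difference. In 9 of them its 95% interval lay within 1 of 0, and in 9 the change was larger in the arrays labelled *flo8*. In a fit on the 8 arrays alone, the *mss11* calls of *SPS4*, *CIN5*, *SFG1*, *FLO11*, *RGS2* and *TCB2* were not made (adjusted p = 0.0568, 0.0644, 0.0644, 0.068, 0.068 and 0.0902), nor was the *flo8* call of *SFG1* (0.128). The fit on all 16 arrays kept 7 of the 30 *mss11* calls and 20 of the 94 *flo8* calls. There, neither call was made for *CIN5*, *CUP9*, *HXT2*, *PRM4*, *RGS2*, *SAG1*, *SFG1*, *SPS4* and *TCB2*, nor the *flo8* call of *CMR3*. In *HXT2*, for example, adjusted p from limma was then 0.811 and 0.393.

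*FLO11*, the adhesin gene, had the largest fall of the 14 in both comparisons. It stood at log2 intensities of 11.21 and 9.73 in wild type a, 6.15 and 6.09 in *mss11*, 13.93 and 14.24 in wild type b, and 6.25 and 5.34 in the arrays labelled *flo8*. As measured, the deletion arrays lay between 5.34 and 6.25, and wild type b lay 3.61 above wild type a. Over all probe sets kept, wild type b lay above wild type a by a median of 1.25. Intensities therefore cannot be compared directly between the sets, and whether the deletions ended at a common *FLO11* level cannot be told. The change was -4.35 in *mss11* (standard error 0.46, adjusted p = 0.00883) and -8.29 in the arrays labelled *flo8* (standard error 0.46, adjusted p = 0.000184 from limma). The difference of 3.94 had a standard error of 0.65, a 95% interval of 2.41 to 5.47 and an adjusted p of 0.113. It was called without wild type a replicate 1 (4.68, adjusted p = 0.00381) and without *flo8* replicate 1 (4.39, adjusted p = 0.0337), and the fall in *mss11* was not called without *mss11* replicate 1 (adjusted p = 0.0917) or 2 (0.105).

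Of the 8 genes lower in both, 5 encode regulators of transcription. *HMS1*, a helix-loop-helix factor of pseudohyphal growth, stood at 6.92 and 7.13 in wild type a, 3.15 and 3.71 in *mss11*, 8.45 and 8.48 in wild type b, and 2.14 and 2.53 in the arrays labelled *flo8*. Its changes were -3.59 and -6.14 (adjusted p = 0.00132 and 3.27e-05), and the difference of 2.54 (95% interval 1.70 to 3.39) was not called (adjusted p = 0.0643). All 4 deletion arrays lay below log2 5, and with such values raised to 5 the changes were -2.02 and -3.47 and the difference 1.45 (adjusted p = 0.0144, 0.000581 and 0.171). The unraised difference passed the test when low probe sets were filtered before the fit (adjusted p = 0.031), after median centring (0.0297), without wild type a replicate 1 (0.0118) and without *flo8* replicate 1 (0.0497). *YAP6*, a bZIP factor, stood at 8.28 and 8.14, 6.20 and 6.35, 9.97 and 10.12, and 8.59 and 8.22, with changes of -1.94 and -1.64 and a 95% interval of the difference of -0.73 to 0.14. *CIN5*, a related bZIP factor, stood at 7.89 and 7.79, 5.96 and 6.49, 9.49 and 9.69, and 7.84 and 8.09, with nearly equal changes of -1.61 and -1.62. *CUP9*, a homeodomain repressor of peptide import, stood at 12.27 and 12.35, 11.53 and 11.55, 13.04 and 13.12, and 12.25 and 12.29. Its changes were -0.78 and -0.81, the difference being 0.03 with a 95% interval of -0.12 to 0.19. *CMR3*, a putative zinc finger factor, stood at 9.38 and 9.36, 7.72 and 7.82, 10.12 and 10.23, and 9.38 and 9.50. Its fall was larger in *mss11*, -1.60 against -0.74, and the difference of -0.86 was not called (adjusted p = 0.0639), though it was called without wild type a replicate 1 (0.0108), without *flo8* replicate 1 (0.0316) and after quantile normalization (0.039). The calls for the arrays labelled *flo8* were lost without wild type b replicate 2 in *CIN5* (adjusted p = 0.0654) and *CMR3* (0.0742).

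The other genes lower in both act outside transcription. *HXT2*, a high-affinity glucose transporter, stood at 11.29 and 10.96, 8.33 and 8.96, 13.24 and 13.18, and 11.14 and 10.76, with changes of -2.48 and -2.26 (adjusted p = 0.00569 and 0.00482). *SAG1*, the α-agglutinin of mating cells, stood at 13.70 and 13.69, 12.99 and 12.94, 14.42 and 14.35, and 13.87 and 13.66, with changes of -0.74 and -0.62 (adjusted p = 0.019 and 0.0204). In both genes all arrays of the deletion lay below those of its wild type. Over all 5120 probe sets, the arrays lay clear of the wild type in 36.6% for *mss11* and in 65% for the arrays labelled *flo8*, in either direction. The 95% interval of the difference took in 0 in both genes, from -1.01 to 0.56 in *HXT2* and from -0.42 to 0.19 in *SAG1*. The call of *SAG1* in *mss11* was lost without wild type a replicate 2 (adjusted p = 0.0571), *mss11* replicate 1 (0.146) or 2 (0.145) or either wild type b replicate (0.0551), and that in the arrays labelled *flo8* without wild type b replicate 1 (0.139) or 2 (0.123) or *flo8* replicate 2 (0.135).

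Of the 6 genes higher in both, *IME1* and *SPS4* belong to meiosis and sporulation. *IME1*, the master regulator of entry into meiosis, stood at log2 intensities of 3.54 and 3.49 in wild type a, 4.83 and 5.06 in *mss11*, 4.91 and 4.88 in wild type b, and 6.94 and 6.77 in the arrays labelled *flo8*. It rose by 1.44 and 1.96 (adjusted p = 0.004 and 0.000296), with a difference of -0.52 (95% interval -0.94 to -0.11, adjusted p = 0.446). All 4 wild-type arrays and *mss11* replicate 1 lay below log2 5, and with such values raised to 5 the *mss11* change was 0.03 and not called (adjusted p = 0.834), while that in the arrays labelled *flo8* was 1.86. *SPS4*, induced in sporulation, stood at 4.47 and 4.72, 6.56 and 6.69, 4.10 and 4.19, and 7.84 and 8.55. It rose by 2.03 and 4.05 (adjusted p = 0.0122 and 0.000184), and the difference of -2.02 (95% interval -2.78 to -1.26) was not called (adjusted p = 0.104) except without wild type a replicate 1 (0.0119) or *flo8* replicate 1 (0.00853). All 4 of its wild-type arrays lay below log2 5, so that it was kept through the deletion arrays, and with such values raised to 5 the rises were 1.63 and 3.20 (adjusted p = 0.0347 and 0.00166). *PRM4*, a pheromone-regulated gene, stood at 6.77 and 6.83, 8.20 and 8.49, 7.06 and 6.85, and 8.81 and 8.85, with rises of 1.55 and 1.87. *RGS2*, which dampens glucose signalling to cAMP through the G protein Gpa2, stood at 8.95 and 8.91, 9.85 and 9.77, 9.57 and 9.66, and 10.62 and 10.93, with rises of 0.88 and 1.16. *SFG1*, a regulator of pseudohyphal growth, was the 1 gene of the 6 with the larger rise in *mss11*. It stood at 9.71 and 9.35, 10.68 and 10.96, 12.31 and 12.12, and 13.06 and 12.98, with rises of 1.29 and 0.80 (adjusted p = 0.00782 and 0.0322). *TCB2*, a tethering protein between the endoplasmic reticulum and the plasma membrane, rose by 0.37 and 0.52 (adjusted p = 0.0279 and 0.00289). The *mss11* calls of *RGS2* and *TCB2* were lost without wild type a replicate 2 (adjusted p = 0.0642 in both), *mss11* replicate 1 (0.185 and 0.175) or 2 (0.129 and 0.185) or either wild type b replicate (0.0605 and 0.0663), and that of *SPS4* without *mss11* replicate 1 (0.103) or 2 (0.121). The *SFG1* calls were lost in *mss11* without *mss11* replicate 2 (0.0658) and in the arrays labelled *flo8* without wild type b replicate 1 (0.115) or 2 (0.244) or *flo8* replicate 1 (0.0746) or 2 (0.164).

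**Figure D4:**
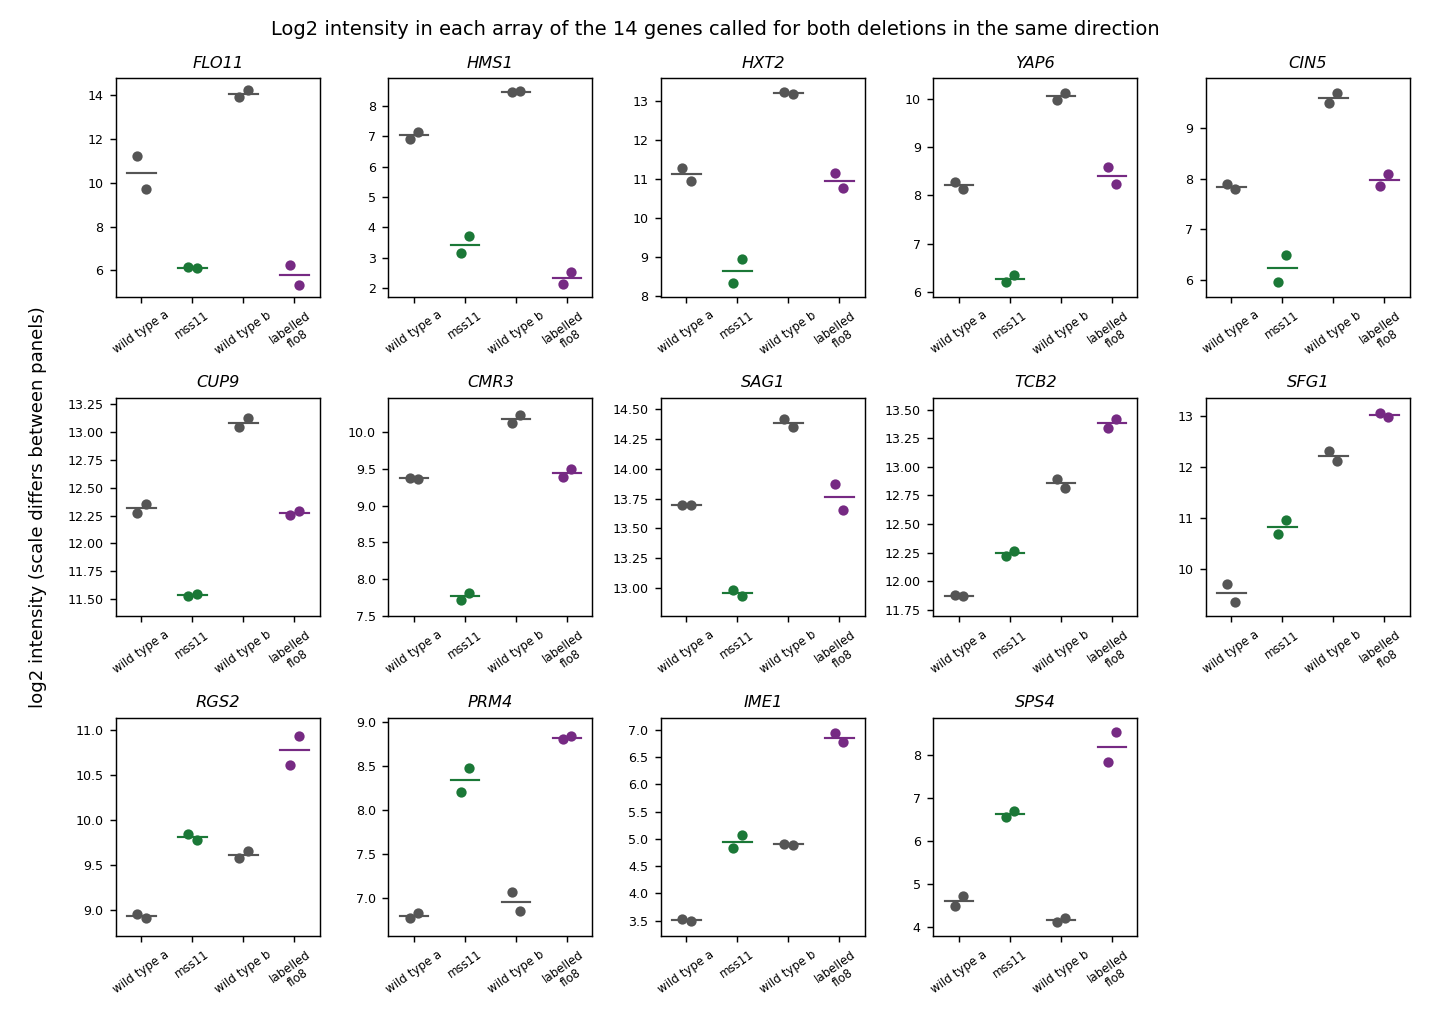
Log2 intensity in each of the 8 arrays for the 14 genes called for both deletions in the same direction, with 1 panel per gene and points for the 2 arrays of each condition and a line at their mean. In 8 panels both deletions lie below their own wild type and in 6 above it, and the wild types differ from each other, most in *FLO11* (a wild type b minus wild type a difference of 3.61).

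The remaining 14 genes called in *mss11* were not called in the arrays labelled *flo8*, but neither was the difference between their changes, so that they are not shown to respond to *mss11* only. In 12 of them the *flo8* change had the same sign. The largest fall was in *ARN1*, a siderophore transporter, which stood at 11.73 and 11.92 in wild type a, 10.13 and 10.09 in *mss11*, 12.68 and 12.34 in wild type b, and 11.94 and 11.47 in the arrays labelled *flo8*. Its changes were -1.72 (adjusted p = 0.0279) and -0.81 (adjusted p = 0.175), with a 95% interval of the difference from -1.69 to -0.13. *TOS8*, a homeodomain factor, stood at 11.17 and 11.55, 9.83 and 9.71, 11.54 and 11.67, and 11.22 and 11.54. It came nearest in size to a response to *mss11* only, with changes of -1.59 (adjusted p = 0.0183) and -0.22 (adjusted p = 0.69), and its difference of -1.37 (95% interval -2.01 to -0.73) had an adjusted p of 0.155. *PHD1*, an activator of pseudohyphal growth, changed by -1.06 (adjusted p = 0.0436) and -0.59 (adjusted p = 0.145). Its call was lost without any of the 8 arrays but wild type a replicate 1 (adjusted p = 0.0746 to 0.233), after quantile normalization (0.0561), with values below log2 5 raised to 5 (0.0519) and with a replicate block (0.0762). *SPO22*, a meiosis gene, rose by 1.21 in *mss11* (adjusted p = 0.0337) and changed by 0.32 in the arrays labelled *flo8*. A filter that kept only probe sets above log2 5 in both wild-type means left *SPO22* out. With values below log2 5 raised to 5 its rise in *mss11* was 0.56 (adjusted p = 0.0207), and a fit on the 8 arrays alone did not call it (adjusted p = 0.119). *MIG2*, a repressor of the glucose response, rose by 0.78 (adjusted p = 0.0213) with 0.23 in the arrays labelled *flo8*.

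*HEM2*, the second enzyme of heme synthesis, and *YAP5*, an iron-responsive bZIP factor, were called in *mss11* without each of the 8 arrays in turn, but neither was called in the fit on all 16 arrays (adjusted p = 1 in both) or with weights per condition (0.102 and 0.673), nor *YAP5* after quantile normalization (0.102). *HEM2* stood at 11.83 and 11.78 in wild type a and 11.40 and 11.38 in *mss11*, a fall of 0.42 (standard error 0.04, adjusted p = 0.004), and changed by -0.12 in the arrays labelled *flo8*. *YAP5* stood at 5.40 and 5.41 and at 4.72 and 4.82, a fall of 0.64 (standard error 0.06, adjusted p = 0.00545), and changed by -0.19 in the arrays labelled *flo8*. In both genes the *mss11* arrays lay below wild type a, as the arrays of *mss11* lay clear of wild type a in 36.6% of the 5120 probe sets. The other genes moved by less than 0.7 in *mss11*: *POL4*, a DNA repair polymerase, was higher by 0.41, while *PAC11*, a dynein subunit, *PET117*, an assembly factor of cytochrome oxidase, *ACA1*, a bZIP factor, *HST3*, a histone deacetylase, *DCW1*, a cell wall mannosidase homolog, and *UTH1*, of the SUN family, fell by between 0.27 and 0.66. *HST3* and *DCW1* were those whose *flo8* change had the opposite sign, 0.08 and 0.03. The calls of *ARN1* and *TOS8* were lost without wild type a replicate 2 (adjusted p = 0.08 and 0.0555), *mss11* replicate 1 (0.193 and 0.133) or 2 (0.185 and 0.14) or either wild type b replicate (0.0605 and 0.0509). Of the 30 genes called in *mss11*, 30 were called without wild type a replicate 1, 17 without wild type a replicate 2, 13 and 12 without *mss11* replicates 1 and 2, 16 without either wild type b replicate and 24 without either *flo8* replicate.

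**Figure D5:**
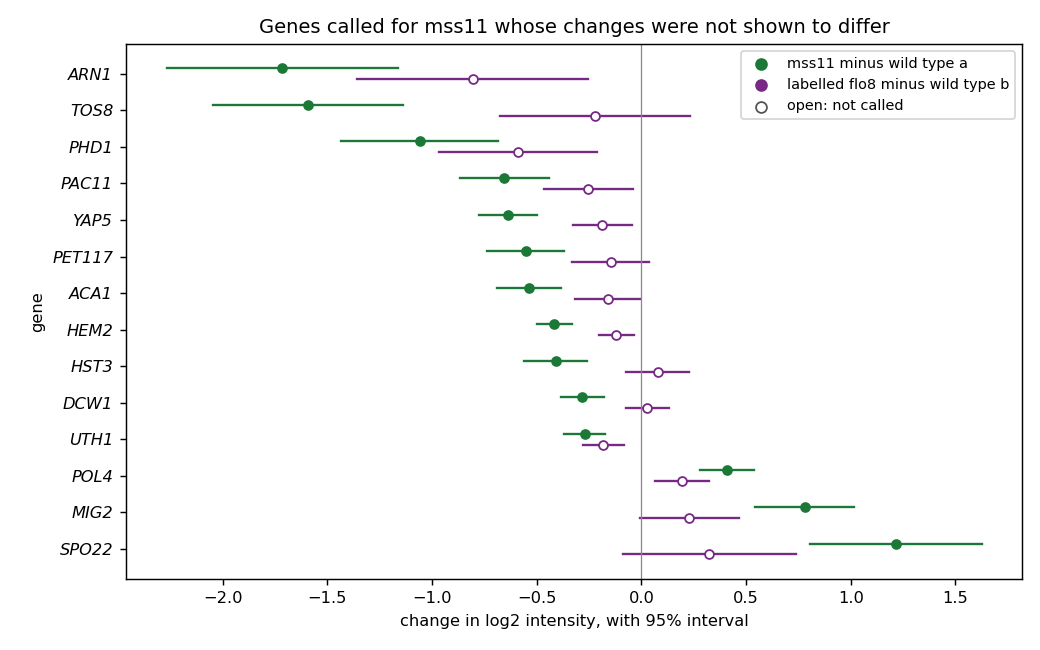
Change in log2 intensity with its 95% interval for the 14 genes called in *mss11* whose changes were not shown to differ between the deletions, with open points where the change was not called. All *mss11* points are filled and all *flo8* points are open, and *TOS8* at -1.59 against -0.22 has the widest gap between the points.

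In the arrays labelled *flo8* a further 71 genes were called that were not called in *mss11* and whose difference was not called, 61 of them with the same sign in *mss11*. *CAR2*, ornithine transaminase of arginine breakdown, fell furthest. It stood at 9.87 and 10.70 in wild type a, 9.27 and 9.19 in *mss11*, 9.43 and 9.91 in wild type b, and 4.49 and 6.09 in the arrays labelled *flo8*, with changes of -1.06 (adjusted p = 0.394) and -4.38 (standard error 0.50, adjusted p = 0.00631). The difference was 3.32 with a 95% interval of 1.68 to 4.97 and an adjusted p of 0.192, its arrays labelled *flo8* being 1.60 apart. *TIR3*, a mannoprotein gene of the Srp1/Tip1 family, stood at 8.20 and 7.72, 4.35 and 5.48, 9.19 and 9.26, and 6.30 and 4.71. It fell by 3.72 in the arrays labelled *flo8* (adjusted p = 0.0232) and changed by -3.04 in *mss11* (adjusted p = 0.0939). *HSP30*, a stress protein that restrains the plasma membrane proton pump, stood at 6.69 and 8.64, 10.23 and 10.26, 3.18 and 3.86, and 8.07 and 9.05. It rose by 5.04 in the arrays labelled *flo8* (adjusted p = 0.0119), its change in *mss11* was 2.58 (adjusted p = 0.171), and in wild type b it stood 4.14 below wild type a (a wild type b minus wild type a difference of -4.14). Both wild type b arrays lay below log2 5, and with such values raised to 5 the rise was 3.56 and not called (adjusted p = 0.0573). *SAM3*, a permease for S-adenosylmethionine, was close to a response to *flo8* only, with changes of -0.09 and -1.13 (adjusted p = 0.71 and 0.00251) and a difference of 1.04 with an adjusted p of 0.069. *UGA4*, a permease for 4-aminobutyrate, changed by -0.25 and -1.32 (adjusted p = 0.59 and 0.0215). Chosen after the values were seen, *GAT1*, a GATA activator of nitrogen genes, changed by -0.20 and -0.96, *BIO2*, the iron-sulfur enzyme biotin synthase, by 0.01 and -1.45, and *AQY2*, an aquaporin gene, by 2.28 and 3.37. The difference was not called for any of them. The *flo8* call of *AQY2* was lost with values below log2 5 raised to 5, that of *BIO2* in a fit on the 8 arrays alone, and those of *GAT1* and *AQY2* in a fit on all 16 arrays. Without wild type b replicate 2, *GAT1*, *BIO2* and *AQY2* all lost this call. *BIO2* also lost it without wild type b replicate 1 or *flo8* replicate 2. *AQY2* lost it without either replicate of *mss11*, of wild type b or of the arrays labelled *flo8*. The calls of *TIR3*, *HSP30* and *UGA4* were lost without wild type b replicate 1 (adjusted p = 0.139, 0.109 and 0.131) or 2 (0.174, 0.0683 and 0.174) or *flo8* replicate 2 (0.13, 0.104 and 0.173), those of *TIR3* and *HSP30* also in a fit on the 8 arrays alone (0.084 and 0.0505), that of *UGA4* without either *mss11* replicate (0.0571), and that of *CAR2* without wild type b replicate 2 (0.0683).

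Gene groups around Mss11 and Flo8 gave few calls beyond the genes above, to be read against 0.586% and 1.84% of all probe sets called. Of 3 flocculin genes kept, 1 (*FLO11*) was lower in both. *FLO10* changed by -0.31 in *mss11* and 0.63 in the arrays labelled *flo8*, and *FLO9* by -0.16 and 0.31, with no call. The paper holds that probe sets of this array separate *FLO1*, *FLO5* and *FLO9* poorly, so the *FLO9* value may not be that of *FLO9* alone. Of 8 mannoprotein genes of the Srp1/Tip1 family, *TIR3* alone was called, in the arrays labelled *flo8*, and the median changes were -0.34 and -0.11. Of 16 genes of the cAMP and protein kinase A pathway, *MSS11* in *mss11* was the call made. *TPK2*, the kinase subunit that acts on Flo8, changed by -0.11 and 0.45, and *CYR1*, adenylate cyclase, by -0.19 and 0.32. None of 14 genes of the filamentous growth MAPK pathway was called in either comparison, with medians of -0.01 and -0.12. The largest change among them was that of *TEC1*, the factor that acts with Ste12, at -0.59 in the arrays labelled *flo8* (adjusted p = 0.0918) and -0.26 in *mss11*. Of 19 transcription factors of *FLO11* and filamentous growth, *HMS1*, *YAP6* and *PHD1* were lower in *mss11* and *HMS1* and *YAP6* in the arrays labelled *flo8*, with medians of -0.19 and 0.02. *HMS2*, *SUT1* and *XBP1*, which had the next largest differences, were not called, with differences of 0.76, 0.72 and -0.61.

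Each of the following groups of growth and metabolism had at most 2 genes called in either comparison. Of 11 genes of daughter cell separation, 1 was called, *DSE4*, a glucanase of the daughter wall, which rose by 0.65 in the arrays labelled *flo8* (adjusted p = 0.0138) and changed by 0.33 in *mss11*. The median of the 11 was 0.49 in the arrays labelled *flo8*, 0.03 without *flo8* replicate 2, and 0.07 in *mss11*, and without *flo8* replicate 2 or wild type b replicate 1 or 2 *DSE4* was not called (adjusted p = 0.126, 0.115 and 0.0931). Of 7 genes of meiotic entry *IME1* was called, and its repressor *RME1* changed by -0.22 and 0.21. Of 5 hexose transporters *HXT2* was lower in both, while *HXT4*, called in neither, changed by -0.35 and 1.13. Of 23 genes of nitrogen uptake and catabolism, *CAR2* and *UGA4* were lower in the arrays labelled *flo8* and none was called in *mss11*. Of 24 genes of methionine and sulfur assimilation, *SAM3* was lower in the arrays labelled *flo8*. Of 8 genes of heme synthesis, *HEM2* was lower in *mss11*, and none of 12 hypoxic genes was called.

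No ribosome biogenesis gene was called in either comparison, and the sign of the list median in *mss11* rested on wild type a replicate 2, as it did for the stress genes. All 40 ribosome biogenesis genes lay above wild type a in *mss11*, with a median of 0.26, and 36 of 40 lay below wild type b in the arrays labelled *flo8*, with a median of -0.19, so that the median difference was 0.44, against -0.05 over all 5120 probe sets. *RIX1*, *DBP8* and *IMP3* had the largest differences, 0.80, 0.79 and 0.76 (adjusted p = 0.532, 0.579 and 0.492). The wild type a arrays of *DBP8* stood at 10.43 and 9.14 and its *mss11* arrays at 10.18 and 10.29, so that *mss11* lay between the replicates of its wild type. Without wild type a replicate 2 the median in *mss11* turned to -0.07, with 7 of 40 above 0, and the median difference was 0.12, whereas without replicate 1 these were 0.58 and 0.78. Of 19 stress and reserve carbohydrate genes, *HSP30* alone was called, the median was -0.21 in *mss11* and 0.44 in the arrays labelled *flo8*, and the median difference was -0.79. It was -1.67 without wild type a replicate 1 and -0.12 without replicate 2, where the *mss11* median turned to 0.43. Without *flo8* replicate 2 the median in the arrays labelled *flo8* was 0.086 and the median difference -0.44, and without *flo8* replicate 1 they were 0.75 and -1.1. *HSP12*, a membrane-protecting stress protein, stood at 10.59 and 12.24 in wild type a, 10.70 and 10.15 in *mss11*, 10.03 and 10.87 in wild type b, and 10.12 and 12.03 in the arrays labelled *flo8*, and its difference of -1.62 had an adjusted p of 0.633. None of 122 cytosolic ribosomal protein genes, 43 mitochondrial ribosomal protein genes or 35 genes of the respiratory chain and ATP synthase was called, with median differences of 0.07, -0.07 and -0.17.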

How the data were processed

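The deposited values are intensities on a linear scale, 1 per probe set and array, which the authors read with GCOS 1.4, background-corrected and normalized. The methods name RMA and the submitters' processing notes name GCRMA, without versions. The sources used here do not say whether the sets with different lowest values were normalized as 1 group. Values below 1 were set to 1 before log2 was taken. Of 10928 probe sets, 5498 were annotated to *S. cerevisiae* genes and tested.

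One mean per condition was fitted with limma 3.58.1 in R 4.3.3 to the 12 Σ1278b arrays (6 conditions, 6 residual and 1.49 prior degrees of freedom), with empirical Bayes moderation and Benjamini-Hochberg adjustment. A gene responded to 1 deletion where the difference and that deletion were called at an adjusted p under 0.05 and the other was not. The fit was tested on simulated data. With 2 arrays per condition, precision is limited. Where a gene had several probe sets, the one with the highest mean was named.

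The genes named are *MSS11*, *FLO8*, *FLO11*, *LEU2*, those called in *mss11*, those called for the difference, and up to 4 of each list described. The members, lists and tests were chosen with earlier results of these data known. Alternatives were fits on 8 or 16 arrays, filters, a floor, quantile normalization, median centring, a trend, robust moderation, weights, a block for the replicate number, a test against a log2 change of 1, other controls and each array left out.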

Additional observations from a re-analysis of the deposited data

Results flagged for a closer look

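The change differed between the deletions, by the test of the difference itself, for 10 genes, 1 of them *MSS11*, which was deleted in *mss11*. The value for *mss11* minus that for the arrays labelled *flo8* was 2.57 in *OAC1*, 2.06 in *ISU2*, 1.97 in *DIC1*, 1.86 in *LEU1*, 1.69 in *YDR124W*, 1.68 in *LEU2*, 1.44 in *BAP2*, 1.28 in *BAT1*, 1.05 in *FSF1* and -4.42 in *MSS11*. In the arrays titled *FLO8* overexpressed, which neither change uses, the mean log2 intensity of *FLO8* lay 2.69 above wild type b. No condition had more than 2 arrays, so no array was tested as standing apart.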

How the results depend on the processing

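With 2 arrays per condition, an adjusted p near 0.05 rests on the spread pooled over the fit, and after an array is left out the lone array is assumed to vary like the other conditions. Depth is not defined for arrays, and *IME1*, whose wild type a arrays lay at 3.54 and 3.49, lost its *mss11* call with a floor at log2 5 (adjusted p = 0.834), as did *PHD1* (0.0519) and the difference in *MSS11* (-2.44, adjusted p = 0.0625). Leaving out each array in turn gave 12 to 1629 calls in *mss11*, 25 to 274 in the arrays labelled *flo8* and 4 to 1358 for the difference, with 1 to 997 probe sets responding to *mss11* only and 3 to 107 to *flo8* only, the upper ends being without wild type a replicate 1 (shared with its replicate 2 for the 274). The cause was not tested.

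Calls in *mss11*, in the arrays labelled *flo8* and for the difference, then probe sets responding to *mss11* only and to *flo8* only, were 30, 94, 10, 1 and 8. They were 19, 60, 9, 3 and 6 in a fit on the 8 arrays, 7, 20, 3, 2 and 1 on all 16 arrays, 45, 86, 22, 7 and 14 with a floor at log2 5, and 28, 104, 11, 2 and 7 after quantile normalization. With weights per condition they were 1, 685, 7, 0 and 6, and 2, 9, 3, 1 and 2 when a log2 change of at least 1 was tested. For the 0 with weights, the single *mss11* call by limma was that of *MSS11*, which was then also called for the difference and in the arrays labelled *flo8*, and 251 probe sets had an unadjusted p under 0.05 in *mss11*. A filter before the fit, a filter on both wild types, median centring, an intensity trend and robust moderation kept all 10 difference calls. Of the *mss11* calls 33.3% were higher, and 50% after quantile normalization.

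With all 4 wild-type arrays as the control of both, the counts were 4717, 4615, 4934, 301 and 192, and the median over all members was 0.61 for the arrays labelled *flo8* and -1.29 for the difference, since the control then mixes the sets. The sign then turned for the *flo8* change of *FLO8* (0.17), *ILV2* (0.23) and *JAC1* (0.33), the *mss11* change of *MIG2* (-0.10), *POL4* (-0.20), *SFG1* (-0.054) and *TCB2* (-0.12), and the difference in *FSF1* (-0.23).

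With the arrays titled *FLO8* overexpressed in place of those labelled *flo8*, the counts were 30, 0, 20, 17 and 0, and 289 probe sets had an unadjusted p under 0.05 for the change by limma. The change against wild type b was then 2.69 in *FLO8*, 0.97 in *TIR3*, 0.75 in *CAR2*, 0.65 in *FLO11*, 0.61 in *CIN5*, 0.44 in *HMS1*, 0.42 in *YAP6*, 0.20 in *CUP9*, 0.086 in *JAC1*, 0.037 in *DRE2*, 0.023 in *SAM3* and 0.020 in *BAT1*. It was -0.014 in *BAT2*, -0.21 in *SFG1*, -0.23 in *TCB2*, -0.24 in *DSE4*, -0.25 in *PRM4*, -0.37 in *HSP30*, -0.43 in *IME1* and -0.68 in *RGS2*. The difference was -5.00 in *FLO11*, -4.03 in *HMS1*, -0.27 in *OAC1*, -0.18 in *ISU2*, -0.15 in *LEU1*, -0.14 in *BAT1*, -0.011 in *FSF1* and 1.65 in *SPS4*. These arrays hold other samples, so this is a change of what is compared.

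The replicate numbers were not taken to pair the arrays, since the correlation of same-numbered deviations was over 0.1 in 6 of 15 pairs of conditions only. It was 0.163 to 0.282 among wild types a and b, the arrays labelled *flo8* and those titled *FLO8* overexpressed, and -0.442 between wild type a and *mss11*. With the replicate number as a block there were 22, 92, 7, 1 and 5 calls in the order above, and the difference was not called for *BAP2*, *FSF1* and *YDR124W* (adjusted p = 0.0634, 0.0699 and 0.0883). Among the genes called in both comparisons, the *mss11* calls of *RGS2* and *TCB2* were lost (adjusted p = 0.0544 and 0.0581).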
